A study of Mus musculus with 18 samples.

Results

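Dntt, Rag1, Rag2 and Ptcra are genes that lymphocytes use while they assemble their antigen receptors. They are described here in donor T cells recovered from the spleens of transplanted mice. The 4 genes were taken from the 46073 rows of the count table by their symbols, and they were chosen with their levels in these libraries already known. Their own values are therefore given as a description, with fitted changes and standard errors but no p value. Which of them the fit over all genes called is stated once, beside the share of all genes called, and nothing is read from it.

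The study asked how loss of Wapl, which takes cohesin rings off chromosomes, changes T cells during graft-versus-host disease. Donor T cells came from female C57BL/6 (CD45.2) mice, either lacking Wapl (KO) or with Wapl intact (WT). They were recovered on day 7 after haematopoietic stem cell transplantation and sorted as live CD3+ CD45.2+ cells. The groups were allogeneic KO, allogeneic WT, syngeneic KO and syngeneic WT, with 3 libraries each. Allogeneic recipients were CByJ.SJL(B6)-Ptprca/J mice, also labelled BALB/c, that were given 8 Gy and 1000000 splenic T cells. Syngeneic recipients were B6.SJL-Ptprca Pepcb/BoyJ mice given 9.5 Gy and 8500000 splenic T cells. All groups also received 5000000 T cell-depleted marrow cells, and mice were 8 to 12 weeks old. Allogeneic and syngeneic groups thus differed in recipient strain, radiation dose and T cell number together, and these cannot be told apart. The cell type field of the syngeneic KO libraries names the allogeneic recipient strain, and they were grouped here by their transplant type. Each library came from 2 to 4 pooled mice. The Cre line and the deleted exons are not given in the sources used here.

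Library totals ran between 45965659 and 89007100 counts, and ribosomal RNA genes took between 8.27 and 32.1% of them, the most in syngeneic KO replicate 1. That share was 16.1 to 18.03% in allogeneic KO, 8.27 to 17.8% in allogeneic WT, 24.0 to 32.1% in syngeneic KO and 20.2 to 23.1% in syngeneic WT libraries, so it separated the transplants without overlap. With those genes taken out before scaling, the fitted allogeneic over syngeneic change of Dntt was −6.28 in KO and −5.52 in WT cells. Values below are counts scaled to 1000000 per library (CPM), on library sizes adjusted by the trimmed mean of M-values (TMM). Wapl averaged 140 ± 14.6 CPM in allogeneic KO and 161 ± 6.80 CPM in allogeneic WT libraries, and 135 ± 6.29 CPM in syngeneic KO against 188 ± 20.8 CPM in syngeneic WT libraries (SD, n = 3 each). It was called lower in KO only in the syngeneic comparison (log2 fold change −0.48 ± 0.11 SE, adjusted p = 0.0368 by edgeR; allogeneic −0.20 ± 0.11, adjusted p = 0.963). That call was lost with any syngeneic library but WT replicate 1 left out (adjusted p = 0.0869 to 0.198, edgeR). It was also lost without the filter on low counts (0.0515) and with the replicate number as a block in the fit of all libraries (0.0602). Among syngeneic libraries alone it was lost without the block (0.0656) and held with it (0.0081). Reads from undeleted exons would still be counted, so the level is a weak check of the labels. Mature T cell markers were abundant in every library, with sums over 10 genes between 3080 and 5500 CPM.

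Receptor genes are built by V(D)J recombination. RAG1 and RAG2, the proteins of Rag1 and Rag2, form the enzyme that cuts DNA beside the gene segments, and the non-homologous end-joining machinery rejoins the ends. Dntt encodes terminal deoxynucleotidyl transferase (TdT), a polymerase that adds nucleotides without a template at those joints. Ptcra encodes pre-T-alpha, the invariant partner of the rearranged beta chain in the pre-T-cell receptor of immature thymocytes. In mice all of them are switched off as T cells mature, and Rag and Dntt are also used by B cell precursors in the marrow, so peripheral T cells normally express little of any.

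The promoters of the genes are shown because E-box proteins are known regulators of this set, and their inhibitors and partners are among the genes compared below. Each line gives RefSeq sequence of build GRCm38.p6 from 250 bases before to 50 bases after the transcription start, read 5′ to 3′ on the strand of the gene, with matches to the E-box motif CANNTG in capitals. The windows are chr19:41029025-41029324 on the plus strand for Dntt, chr2:101649483-101649782 on the minus strand for Rag1, chr2:101624462-101624761 on the plus strand for Rag2 and chr17:46763663-46763962 on the minus strand for Ptcra.
Dntt: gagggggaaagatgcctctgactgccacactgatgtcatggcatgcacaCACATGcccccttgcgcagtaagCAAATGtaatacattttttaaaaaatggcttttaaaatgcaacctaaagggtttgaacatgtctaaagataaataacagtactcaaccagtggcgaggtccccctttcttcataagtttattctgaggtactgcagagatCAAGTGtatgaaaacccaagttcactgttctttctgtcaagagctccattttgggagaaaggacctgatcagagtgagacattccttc
Rag1: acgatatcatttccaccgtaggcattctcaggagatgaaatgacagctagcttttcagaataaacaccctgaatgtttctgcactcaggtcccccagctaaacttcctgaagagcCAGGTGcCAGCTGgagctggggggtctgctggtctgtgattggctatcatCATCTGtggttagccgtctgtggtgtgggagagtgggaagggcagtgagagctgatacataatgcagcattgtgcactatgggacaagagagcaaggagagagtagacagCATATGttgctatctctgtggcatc
Rag2: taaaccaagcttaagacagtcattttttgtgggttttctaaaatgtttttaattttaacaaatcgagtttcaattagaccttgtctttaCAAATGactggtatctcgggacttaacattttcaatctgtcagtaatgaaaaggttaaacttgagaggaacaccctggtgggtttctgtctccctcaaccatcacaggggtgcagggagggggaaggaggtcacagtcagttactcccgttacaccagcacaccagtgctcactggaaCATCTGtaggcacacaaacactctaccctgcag
Ptcra: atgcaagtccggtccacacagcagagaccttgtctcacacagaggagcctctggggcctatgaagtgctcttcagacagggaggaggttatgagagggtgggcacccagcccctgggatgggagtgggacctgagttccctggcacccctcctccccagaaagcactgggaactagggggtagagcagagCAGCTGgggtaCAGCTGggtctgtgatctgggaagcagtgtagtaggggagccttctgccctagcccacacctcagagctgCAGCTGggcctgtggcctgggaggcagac
The E-box letters, which read the same on both strands, matched 3 times in the Dntt window, 4 times in Rag1, 2 times in Rag2 and 3 times in Ptcra. At least 1 match was present in 72.3% of 32851 promoters of the same length, at least 3 in 17.6% and at least 4 in 6.49%. The Runx core TGTGGT, searched on both strands, matched 2 times in the Rag1 window, 1 of them overlapping an E-box match, and not in the other windows. At least 2 such matches were present in 1.81% of promoters. The Ikaros core TGGGAA matched 1 time in Rag1 and 2 times in Ptcra, and 25.6% of promoters held at least 1 and 3.79% at least 2. The Ets core CCGGAA matched none of the 4 windows and 14.9% of all promoters. These matches describe letters only.

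Dntt was the most abundant of the 4 genes in syngeneic transplants and had only a few counts per library in allogeneic ones. The gene (ENSMUSG00000025014, chr19:41029275-41059525, plus strand, build GRCm38) had 5, 4 and 4 counts in the allogeneic KO libraries and 6, 8 and 7 in the allogeneic WT libraries, taken in replicate order. It had 246, 409 and 329 counts in the syngeneic KO libraries and 257, 287 and 285 in the syngeneic WT libraries. In CPM the means were 0.0806 ± 0.0321 in allogeneic KO, 0.101 ± 0.0186 in allogeneic WT, 6.17 ± 1.09 in syngeneic KO and 4.59 ± 0.511 in syngeneic WT libraries (SD, n = 3 each). The 6 allogeneic libraries lay between 0.0579 and 0.118 CPM and the 6 syngeneic ones between 4.00 and 7.03 CPM, with a wide gap and no overlap. Allogeneic libraries lay below syngeneic ones without overlap for 16.6% of tested genes in KO and 27.5% in WT cells.

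The fitted log2 fold change of Dntt, allogeneic over syngeneic, was −6.28 ± 0.32 (SE) in KO cells and −5.50 ± 0.30 in WT cells. On pooled counts the level was 82.1 times lower in allogeneic than in syngeneic KO libraries (95% exact counting interval 47.8 to 155) and 46.8 times lower in allogeneic than in syngeneic WT libraries (30.4 to 76.0). These intervals cover counting error only. Leaving out any single library moved the pooled ratio to between 70.8 and 100.0 in KO and to between 41.1 and 50.9 in WT cells. Of the 18447 genes tested, 9 had a larger fitted fall in KO and 73 in WT cells. The KO and WT comparisons use different libraries, and the interaction term between them was −0.78 ± 0.43. In bulk RNA, fewer cells that hold a transcript and less transcript per cell cannot be told apart.

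Between KO and WT cells Dntt differed far less. The fitted KO over WT change was 0.43 ± 0.23 in syngeneic and −0.36 ± 0.36 in allogeneic transplants. In syngeneic transplants the lowest KO library, replicate 1 at 4.94 CPM, lay just above the highest WT library at 4.91 CPM. Groups failed to overlap in this way for 23.3% of all tested genes, and the separation depended on the scaling. With total counts as library sizes the syngeneic KO libraries spanned 3.82 to 7.11 CPM and overlapped the WT libraries at 3.92 to 5.33 CPM.

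**Figure D1:**
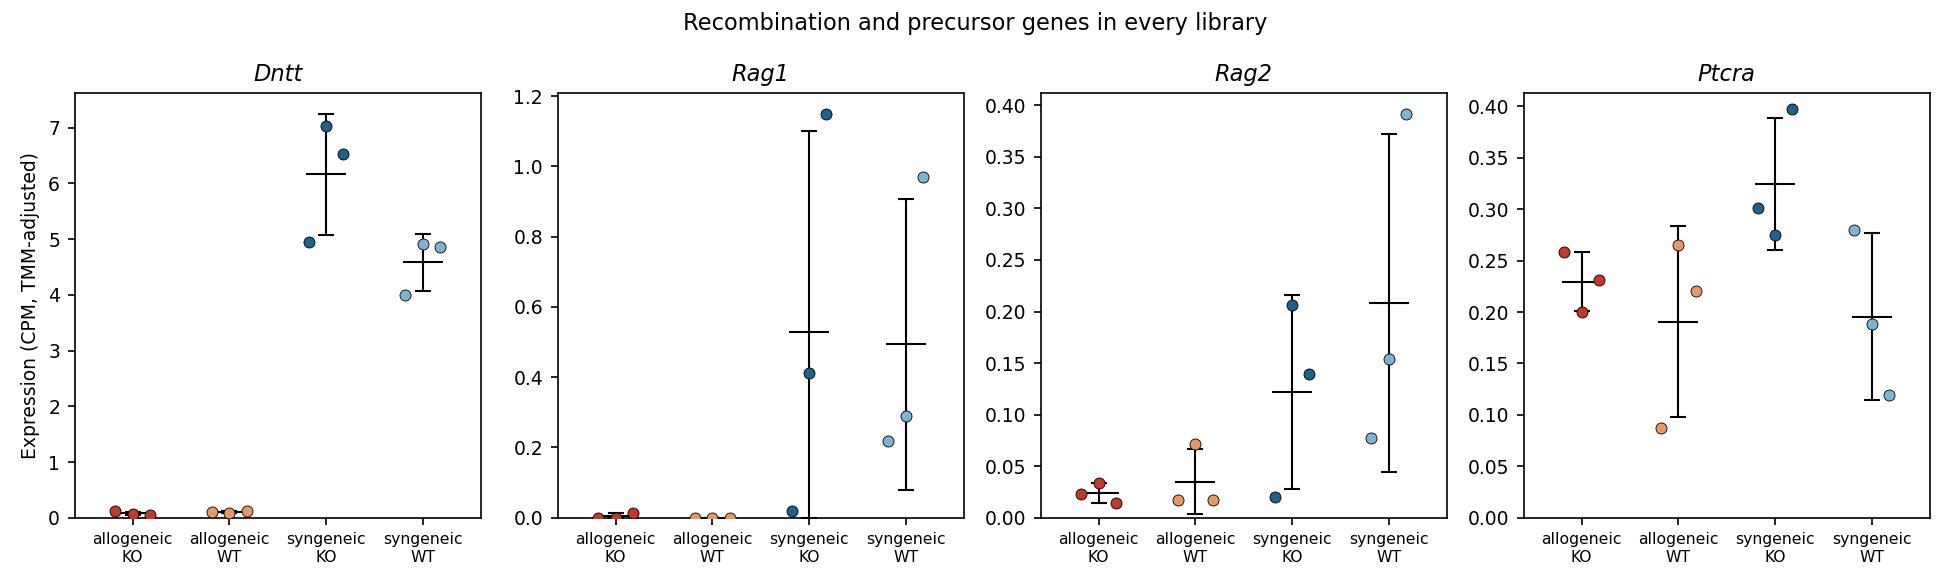
Expression of Dntt, Rag1, Rag2 and Ptcra in CPM (vertical axes, linear and different in each panel) in the 12 libraries, with the groups from left to right allogeneic KO, allogeneic WT, syngeneic KO and syngeneic WT. Points are libraries in replicate order, horizontal marks the means and bars ± SD, drawn no lower than 0. Dntt separates the syngeneic libraries (4.00 to 7.03 CPM) from the allogeneic ones (0.0579 to 0.118 CPM), Rag1 and Rag2 scatter widely within the syngeneic groups, and Ptcra is low in all groups, at most 0.397 CPM.

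Rag1 was nearly absent from allogeneic libraries and uneven among syngeneic ones. The gene (ENSMUSG00000061311, chr2:101638282-101649501, minus strand) had 0, 0 and 1 counts in allogeneic KO libraries and 0 in each of the 3 allogeneic WT libraries. It had 1, 24 and 58 counts in syngeneic KO libraries and 14, 17 and 57 in syngeneic WT libraries. The syngeneic KO values were 0.0201, 0.413 and 1.15 CPM (mean 0.528 ± 0.574), and the syngeneic WT values were 0.218, 0.291 and 0.971 CPM (mean 0.493 ± 0.415). Replicate 3 was the highest and replicate 1 the lowest in both syngeneic groups, and the groups overlapped almost entirely. The fitted KO over WT change in syngeneic transplants was 0.10 ± 0.92, and −0.27 ± 0.58 with the replicate number as a block.

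With a floor of 3 counts over the group, Rag1 was at least 34.8-fold lower in allogeneic than in syngeneic WT libraries. In KO cells the single allogeneic count gave a level 90.0 times lower than in the syngeneic libraries (15.7 to 3600). Both figures rest on replicate 3 of the syngeneic groups. Without syngeneic WT replicate 3 the bound in WT cells was 18.1, and without syngeneic KO replicate 3 the KO ratio was 39.8. Leaving out allogeneic WT replicate 2, the deepest library, lowered the WT bound to 18.9, and leaving out allogeneic KO replicate 2 lowered the KO ratio to 58.6. Without allogeneic KO replicate 3, which holds the only count, the KO value became a bound of 17.9. Syngeneic KO replicate 1, with 1 count, lay no higher than an allogeneic library with 1 count would at equal depth.

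Rag2, like Rag1, had a lower mean in the allogeneic than in the syngeneic group of each genotype, and it did not pass the filter on low counts, so no fold change was fitted. The gene (ENSMUSG00000032864, chr2:101624718-101632529, plus strand) had 1, 2 and 1 counts in allogeneic KO and 1, 7 and 1 in allogeneic WT libraries. It had 1, 12 and 7 counts in syngeneic KO and 5, 9 and 23 in syngeneic WT libraries. The means were 0.0238 CPM in allogeneic KO, 0.0352 CPM in allogeneic WT, 0.122 ± 0.0942 CPM in syngeneic KO and 0.208 ± 0.164 CPM in syngeneic WT libraries (SD, n = 3). In KO cells the allogeneic and syngeneic libraries overlapped, because syngeneic KO replicate 1 had a single count. In WT cells the highest allogeneic library, at 0.0712 CPM, lay just below the lowest syngeneic one at 0.0778 CPM, and on total counts they overlapped (0.0786 against 0.0762 CPM).

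On pooled counts Rag2 was 5.42 times lower in allogeneic than in syngeneic KO libraries (1.82 to 21.8) and 4.87 times lower in allogeneic than in syngeneic WT libraries (2.31 to 11.5). Single libraries moved these ratios widely. The WT ratio was 11.9 without allogeneic WT replicate 2 and 2.73 without syngeneic WT replicate 3, and the KO ratio was 3.43 without syngeneic KO replicate 2. The 23 counts of syngeneic WT replicate 3 fell in the library that also had the most Rag1 counts of its group.

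The annotation limits what Rag counts can carry. The gene B230118H07Rik overlaps both, sharing 80 exon bases with Rag1, which has the same strand, and 208 with Rag2, which has the other. Whether the counting used strand is not given in the sources used here. B230118H07Rik averaged 0.153 ± 0.0307 CPM in allogeneic KO against 0.391 ± 0.127 CPM in syngeneic KO, and 0.135 ± 0.0835 CPM in allogeneic WT against 0.468 ± 0.137 CPM in syngeneic WT libraries. It was called lower in allogeneic WT (log2 fold change −1.83 ± 0.49, adjusted p = 0.0121, edgeR) and not in KO cells (−1.33 ± 0.49, adjusted p = 0.0669). The WT call was lost without syngeneic WT replicate 2 or allogeneic WT replicate 2 (0.0503 and 0.0576). How reads were shared between it and the Rag genes was not tested. Traf6, the next gene beyond Rag1, differed by −0.22 ± 0.14 in KO and −0.08 ± 0.14 in WT cells and was not called (adjusted p = 0.253 and 0.666).

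Progenitor cell transcripts were measurable in the sorted libraries, and within each syngeneic group their summed level ranked the libraries as Rag1 did. Haematopoietic stem and progenitor markers, 12 genes that include Kit, Cd34, Flt3 and Mpo, summed to 258, 103 and 189 CPM in allogeneic KO libraries and 271, 60.9 and 137 CPM in allogeneic WT libraries. They summed to 34.9, 226 and 476 CPM in syngeneic KO and 91.3, 322 and 334 CPM in syngeneic WT libraries. In each syngeneic group replicate 1 was lowest and replicate 3 highest for this sum and for Rag1, although syngeneic WT replicates 2 and 3 had close sums and Rag1 at 0.291 and 0.971 CPM. That order was not particular to progenitor markers. The sums of the myeloid, mature B cell and early B lineage lists below had it in both syngeneic groups. Early B lineage markers summed to 33.6, 37.7 and 58.0 CPM in syngeneic KO and 27.0, 37.5 and 39.8 CPM in syngeneic WT libraries. The red cell precursor and plasmacytoid dendritic cell sums did not have it in both groups. Across transplants, the 6 allogeneic libraries held at most 1 Rag1 count each at sums of up to 271 CPM, and syngeneic WT replicate 1 held 14 at 91.3 CPM. Flt3, a receptor of lymphoid progenitors, was at 0.301, 3.63 and 6.98 CPM in syngeneic KO and 1.70, 5.08 and 5.77 CPM in syngeneic WT libraries, again in that order.

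Dntt did not spread in this way. Over the 6 syngeneic libraries its highest value was 1.76 times its lowest, against 57.2 times for Rag1, 19.5 times for Rag2 and 3.33 times for Ptcra. Syngeneic KO replicate 1 had 34.9 CPM of progenitor markers, 1 count of Rag1 and 4.94 CPM of Dntt. Allogeneic WT replicate 1 had 271 CPM of progenitor markers, no Rag1 count and 0.104 CPM of Dntt. Mpo, a granule enzyme of myeloid progenitors, and Flt3 are both part of the progenitor sum. In the allogeneic libraries Mpo averaged 95.6 ± 51.5 CPM in KO and 75.0 ± 50.8 CPM in WT, while Flt3 averaged 0.488 ± 0.308 CPM in KO and 0.615 ± 0.633 CPM in WT. The level of the sum thus depends on which of its genes are counted. Of all 18447 tested genes, 24.4% were called between allogeneic and syngeneic KO cells and 32.3% between allogeneic and syngeneic WT cells, and the counts for each gene list stand against these shares. Of the 11 progenitor genes tested, Cd34 was called lower in allogeneic KO than in syngeneic KO, and Cd34 and Lmo2 in allogeneic WT than in syngeneic WT. All 3 calls were lost when single libraries were left out (edgeR). The Cd34 call in KO was lost without syngeneic KO replicate 2 or 3 or allogeneic KO replicate 2, at adjusted p values of 0.0532 to 0.0833. It was also lost with only the compared groups fitted (0.0566). The WT calls ended when replicate 2 or 3 of either WT group was left out, and that of Cd34 also without allogeneic WT replicate 1, at adjusted p values of 0.0688 to 0.133. Both WT calls were also lost without the filter on low counts and with the replicate block (0.0553 to 0.0919). The part of progenitors in the Rag and Dntt values was not tested.

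**Figure D2:**
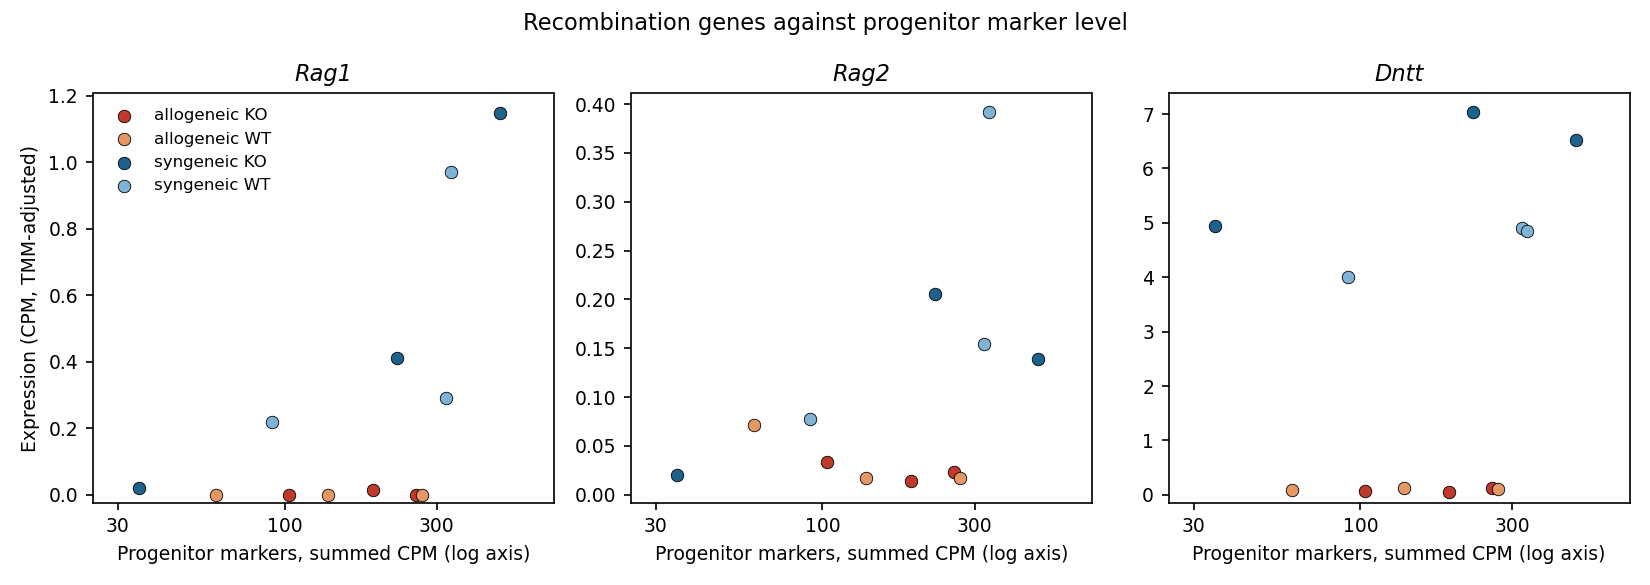
Rag1, Rag2 and Dntt in CPM (vertical axes, linear) against the summed CPM of 12 stem and progenitor cell markers (horizontal axes, logarithmic), with 1 point for each of the 12 libraries coloured by group. Among syngeneic libraries Rag1 is lowest at the lowest marker sum (34.9 CPM) and highest at the highest (476 CPM), Dntt stays between 4.00 and 7.03 CPM, and the allogeneic libraries lie near the bottom of each panel at sums up to 271 CPM.

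Early B lineage markers, which would mark another source of Rag and Dntt, were low throughout. Their 14 genes summed to between 26.9 and 29.8 CPM in allogeneic KO, 16.5 and 24.9 in allogeneic WT, 33.6 and 58.0 in syngeneic KO and 27.0 and 39.8 in syngeneic WT libraries. Most of that was Cd79b, at 15.1 ± 4.78 CPM in syngeneic KO and 10.3 ± 1.93 CPM in syngeneic WT libraries, and Sox4 and Cd93, which other cells also express. Vpreb2, a surrogate light chain gene, was at 0 in every library, and Igll1 averaged 0.0313 ± 0.0299 CPM in syngeneic KO and 0.156 ± 0.087 CPM in syngeneic WT libraries. Sox4, a transcription factor of lymphoid precursors, was lower in allogeneic than in syngeneic cells, by −2.55 ± 0.34 in KO (adjusted p = 0.000149) and −1.69 ± 0.33 in WT (0.00184). Of 11 genes tested, 1 was called higher and 2 lower in allogeneic KO, and 3 lower in allogeneic WT cells. Their part in the Dntt values was not tested.

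Plasmacytoid dendritic cell markers were examined because those cells can carry Rag and Dntt transcripts in mice. Ly6d, which also marks early lymphoid cells, averaged 0.211 ± 0.139 CPM in allogeneic KO against 2.00 ± 0.706 CPM in syngeneic KO libraries, and 0.242 ± 0.102 CPM in allogeneic WT against 2.15 ± 1.01 CPM in syngeneic WT libraries. It was lower by −3.17 ± 0.56 in KO and −3.17 ± 0.55 in WT cells (adjusted p = 0.00114 and 0.000788, edgeR). Siglech, a surface receptor of these cells, was at 0.0520 ± 0.0757 CPM in syngeneic KO and 1.24 ± 0.519 CPM in syngeneic WT libraries. The summed level of the 12 markers was 306 to 318 CPM in allogeneic KO, 260 to 313 in allogeneic WT, 219 to 241 in syngeneic KO and 181 to 213 in syngeneic WT libraries. That sum is led by Runx2 and Irf8, which T cells also express. Of 10 genes tested, 2 were called higher and 3 lower in allogeneic KO, and 2 higher and 6 lower in allogeneic WT cells. The part of these cells in the Rag and Dntt values was not tested.

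Markers of other blood cells also differed between syngeneic KO and WT libraries. The 9 red cell precursor genes summed to 29.2 to 100.0 CPM in syngeneic KO and 2130 to 4830 CPM in syngeneic WT libraries, and 8 of them were called lower in KO. The 11 myeloid genes summed to 40.8 to 305 CPM in allogeneic KO, 304 to 491 in allogeneic WT, 11.1 to 76.5 in syngeneic KO and 213 to 630 in syngeneic WT libraries, and 5 were called lower in syngeneic KO than in syngeneic WT cells. Of 8 mature B cell genes, the class II genes H2-Aa and H2-Ab1 were called lower in syngeneic KO, and the list summed to 71.3 to 111 CPM in syngeneic KO and 100.0 to 170 CPM in syngeneic WT libraries. Siglech and Spib, of the plasmacytoid dendritic cell list, were also called lower in syngeneic KO. Of these 17 calls, 7 were lost when 1 library was left out, at adjusted p values of 0.0531 to 0.193 (edgeR). Without syngeneic KO replicate 2, the calls of H2-Aa, H2-Ab1, Spib, C1qb, Itgam, Adgre1 and Gata1 were all lost, and all of these but C1qb were lost without syngeneic WT replicate 2 and without syngeneic WT replicate 3. Leaving out syngeneic KO replicate 1 ended 5 of them, and leaving out syngeneic KO replicate 3 ended that of Itgam. No gene of these lists was called between allogeneic KO and WT cells. The part of these cells in the KO over WT values of Dntt, Rag1 and Rag2 was not tested.

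Ptcra was low in all groups, and its group means lay closer together than those of Dntt and Rag1. The gene (ENSMUSG00000036858, chr17:46755663-46763712, minus strand) had 11, 12 and 16 counts in allogeneic KO, 5, 26 and 13 in allogeneic WT, 15, 16 and 20 in syngeneic KO and 18, 11 and 7 in syngeneic WT libraries. The means were 0.230 ± 0.0290 CPM in allogeneic KO, 0.190 ± 0.0925 CPM in allogeneic WT, 0.324 ± 0.0640 CPM in syngeneic KO and 0.196 ± 0.0807 CPM in syngeneic WT libraries (SD, n = 3 each). The allogeneic over syngeneic change was −0.50 ± 0.46 in KO and −0.02 ± 0.47 in WT cells, and the KO over WT change was 0.23 ± 0.46 in allogeneic and 0.71 ± 0.46 in syngeneic transplants. The allogeneic KO libraries, at most 0.258 CPM, lay below the syngeneic KO libraries, at least 0.275 CPM. Allogeneic KO libraries lay below syngeneic KO ones in this way for 16.6% of all tested genes. On total counts the groups overlapped, with allogeneic KO at most 0.245 CPM and syngeneic KO at least 0.233 CPM. The gap on adjusted library sizes is within counting error, since the pooled ratio of 1.42 had an interval of 0.916 to 2.21. Between the syngeneic groups, which overlapped, the pooled WT level was 0.616 times the KO level (counting interval 0.391 to 0.963). Scaled by total counts it was 0.691 times the KO level. That interval leaves out the spread between libraries, which the standard error of the fitted change (0.71 ± 0.46) includes. Ptcra lies within Gm26904, a long intergenic RNA on the opposite strand with which it shares no exon bases. Gm26904 averaged 0.261 ± 0.0769 CPM in allogeneic KO and 0.232 ± 0.119 CPM in allogeneic WT libraries. It averaged 0.405 ± 0.0989 CPM in syngeneic KO and 0.253 ± 0.129 CPM in syngeneic WT libraries, so its group means ran close to those of Ptcra. Its KO over WT change in syngeneic transplants was 0.69 ± 0.50, and its allogeneic over syngeneic change in KO was −0.63 ± 0.50. How reads were shared between the 2 genes was not tested.

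The count of members past the test can be set beside that of all genes. Among the 3 members that passed the filter on low counts, Dntt and Rag1 were called lower in allogeneic than in syngeneic cells, in KO, where 11.2% of all 18447 tested genes were called lower, and in WT, where 15.9% were. A further 13.2% in KO and 16.4% in WT were called higher. None was called between KO and WT cells, where 3.37% of genes were called in syngeneic and 0.0542% in allogeneic transplants, and none in the interaction, where 0.477% were. Rag1 lost its call in KO when syngeneic KO replicate 3 or any of the 3 allogeneic KO libraries was left out. Nothing is read from these counts, because the members were chosen for such values and Rag1 passed the filter through its syngeneic libraries.

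Divided by exon length, the levels can be ordered between genes. In syngeneic KO libraries Dntt stood at 2.69 CPM per kilobase, Ptcra at 0.253, Rag1 at 0.0798 and Rag2 at 0.0355. In syngeneic WT libraries Dntt stood at 2.00, Ptcra at 0.153, Rag1 at 0.0746 and Rag2 at 0.0607 CPM per kilobase. In allogeneic libraries Ptcra was the highest, at 0.179 in KO and 0.148 in WT, above Dntt at 0.0352 in KO and 0.0442 in WT. Across groups Dntt ran in the order syngeneic KO, syngeneic WT, allogeneic WT and allogeneic KO, and the allogeneic groups overlapped each other. For Rag1 and Rag2 the syngeneic groups overlapped, and so did the allogeneic ones.

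The genes whose log2 CPM followed each member most closely over the 12 libraries were named by Pearson r, as a measure of likeness only, since the libraries fall into groups and share their scaling. For Dntt they were Syde1 (r = 0.991), Sh3pxd2a (0.991), Nrp2 (0.989), Slc6a19 (0.988) and Klhl30 (0.988). Sh3pxd2a averaged 2.46 CPM in allogeneic KO and 74.1 CPM in syngeneic KO libraries, and Nrp2, a neuropilin receptor, averaged 1.08 CPM in allogeneic WT and 17.6 CPM in syngeneic WT libraries. For Rag1 they were Drc7 (0.956), Ephb2 (0.953), Sstr2 (0.951), Gper1 (0.947) and Klra9 (0.944), all under 2 CPM in every group mean. For Ptcra the values were lower, led by Apbb2 (0.854), Fbxo41 (0.836), Mtmr11 (0.835), Zfp239 (0.807) and Trex1 (0.772).

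Genes of the wider recombination machinery were called in both directions. Of 18 tested genes of V(D)J cleavage cofactors and end joining, 1 was called higher and 1 lower in allogeneic than in syngeneic KO cells, and 2 higher and 5 lower in WT cells, against 24.4% of all tested genes called in KO and 32.3% in WT. Their median log2 fold change was 0.106 in KO and 0.0789 in WT, against −0.0208 and −0.0277 for all tested genes. Hmgb2, a DNA-bending cofactor of RAG cleavage, averaged 531 ± 138 CPM in allogeneic KO against 313 ± 26.5 CPM in syngeneic KO, and 386 ± 39.8 CPM in allogeneic WT against 230 ± 24.5 CPM in syngeneic WT libraries. It was higher by 0.77 ± 0.18 in KO and 0.75 ± 0.18 in WT cells (adjusted p = 0.00734 and 0.00661, edgeR). Atm, the kinase that signals double-strand breaks, was lower by −0.52 ± 0.14 in KO (adjusted p = 0.0147) and −0.60 ± 0.14 in WT cells (0.00465). Its KO call was lost without syngeneic KO replicate 2 or allogeneic KO replicate 2 (adjusted p = 0.0594 and 0.0622), and with only the compared groups fitted (0.067).

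In WT cells Mdc1, an adaptor at DNA breaks, was lower by −0.63 ± 0.14 (adjusted p = 0.00459), Prkdc, the end-joining kinase, by −0.50 ± 0.13 (0.00894) and Rif1, which protects DNA ends, by −0.41 ± 0.10 (0.00903). None of these 3 was called in KO cells, where their changes were −0.39 ± 0.14, −0.23 ± 0.13 and −0.16 ± 0.10, and the interaction did not call any of them. Trp53bp1 (−0.28 ± 0.10, adjusted p = 0.0409) and the gap-filling polymerase Poll (0.45 ± 0.14, 0.0237) were also called in WT cells. Both calls ended when syngeneic WT replicate 2 or 3 or allogeneic WT replicate 1 was left out, at adjusted p values of 0.0625 to 0.149. That of Trp53bp1 also ended without syngeneic WT replicate 1 (0.0852) and without allogeneic WT replicate 2 (0.127). It was lost as well without the filter on low counts (0.134) and with the replicate block (0.0534). The core end-joining genes Xrcc5, Xrcc6, Xrcc4, Lig4 and Dclre1c were not called. Polm, the polymerase closest to TdT, averaged 25.6 ± 3.52 CPM in allogeneic KO against 24.9 ± 0.794 CPM in syngeneic KO, and 29.3 ± 1.82 CPM in allogeneic WT against 23.2 ± 2.29 CPM in syngeneic WT libraries, and was not called in KO or in WT cells (adjusted p = 0.832 and 0.0524). Between KO and WT cells of either transplant no gene of the list was called.

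Transcription factors tied to the control of Rag, Dntt or Ptcra differed in both directions. Of 14 tested, 4 were called higher and 6 lower in allogeneic than in syngeneic KO cells, and 5 higher and 5 lower in WT cells, against 24.4% of all tested genes called in KO and 32.3% in WT. Their median log2 fold change was −0.427 in KO and −0.340 in WT, against −0.0208 and −0.0277 for all tested genes. Foxo1 and Foxp1, forkhead factors that activate Rag genes in mouse lymphocytes, were lower. Foxo1 averaged 111 ± 20.4 CPM in allogeneic KO against 202 ± 19.9 CPM in syngeneic KO, and 109 ± 9.13 CPM in allogeneic WT against 226 ± 36.8 CPM in syngeneic WT libraries. Its change was −0.86 ± 0.16 in KO (adjusted p = 0.00148) and −1.05 ± 0.16 in WT cells (0.000264), and that of Foxp1 was −1.22 ± 0.12 (1.36e-05) in KO and −1.11 ± 0.12 (2.23e-05) in WT cells. Satb1, a chromatin organiser of thymocytes, was lower by −0.89 ± 0.13 in KO (0.000347) and −0.53 ± 0.13 in WT cells (0.00803).

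Of the genes for E proteins, which bind E-boxes, and for their inhibitors, Tcf12 was lower and Id2 higher in allogeneic cells. Tcf12, which encodes the E protein HEB, was lower by −0.67 ± 0.11 in KO (adjusted p = 0.000671) and −0.63 ± 0.11 in WT cells (0.000843). Tcf3, which encodes the E2A proteins, differed by −0.25 ± 0.10 in KO and −0.07 ± 0.10 in WT and was not called. Id2, an inhibitor that keeps E proteins from DNA, averaged 337 ± 53.6 CPM in allogeneic KO against 79.0 ± 7.90 CPM in syngeneic KO, and 382 ± 29.1 CPM in allogeneic WT against 64.2 ± 1.64 CPM in syngeneic WT libraries. It was higher by 2.09 ± 0.13 in KO (3.71e-07) and 2.57 ± 0.14 in WT cells (6.17e-08). Id3, a related inhibitor, was lower by −1.58 ± 0.29 in KO (0.00162) and −0.89 ± 0.28 in WT cells (0.0301). Leaving out syngeneic WT replicate 1 or 3 ended its WT call (0.106 and 0.0575), as did leaving out allogeneic WT replicate 2 (0.104).

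Gfi1, a repressor in T cells, was higher in allogeneic cells by 0.95 ± 0.11 in KO (adjusted p = 5.87e-05) and 1.20 ± 0.11 in WT (6.37e-06). Ikzf3, an Ikaros family factor, was higher by 0.70 ± 0.11 in KO (0.000597) and 0.90 ± 0.11 in WT (6.57e-05). Ets1 was higher by 0.55 ± 0.15 in KO (0.0161) and 0.54 ± 0.15 in WT (0.0141), and its call was lost without replicate 2 or 3 of the syngeneic group (0.0787 and 0.0751 in KO, 0.0565 and 0.0690 in WT). The KO call of Ets1 was also lost with only the compared groups fitted (0.0818). Bcl11b was called lower in KO only (−0.61 ± 0.16, 0.0125, and 0.0547 without allogeneic KO replicate 2), and Ikzf1 was called higher in WT only (0.36 ± 0.13, 0.0423). The Ikzf1 call ended when any of the 3 allogeneic WT libraries, or syngeneic WT replicate 2 or 3, was left out, at adjusted p values of 0.0625 to 0.144. It was also lost without the filter on low counts (0.056). Runx1 and Myb were not called. No gene of this list was called between KO and WT cells in either transplant.

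**Figure D3:**
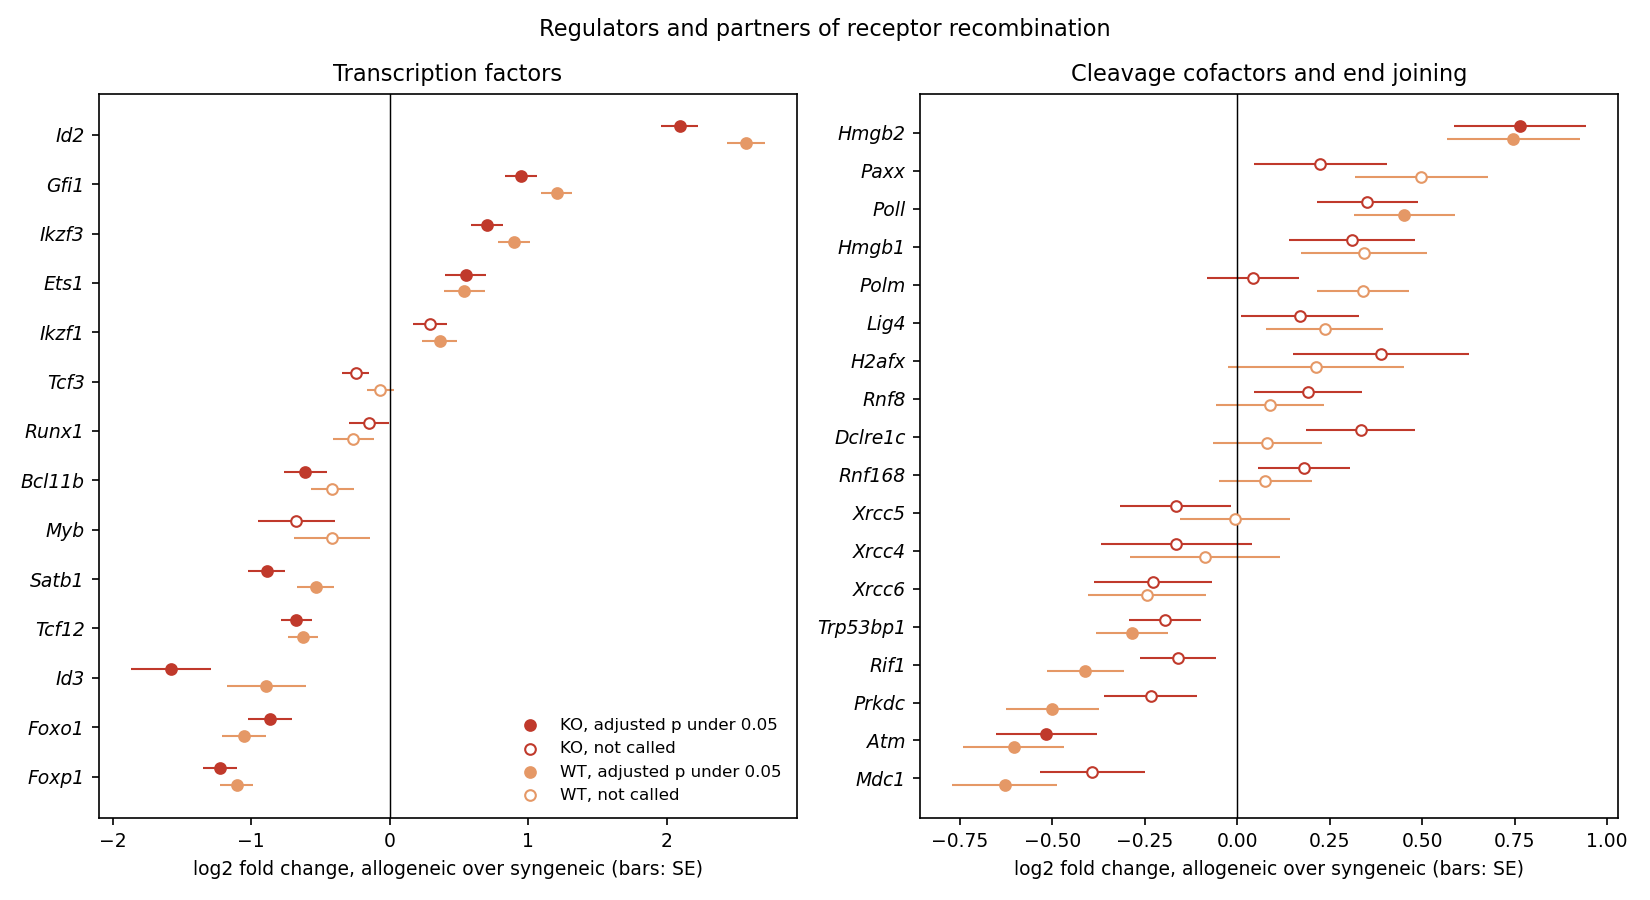
Log2 fold change, allogeneic over syngeneic, of 14 transcription factors (left) and 18 cleavage cofactor and end-joining genes (right), with bars for the standard error, KO above WT for each gene. Filled points were called at an adjusted p under 0.05 and open points were not. Id2 lies farthest to the right (2.09 in KO and 2.57 in WT), Foxp1, Foxo1 and Id3 farthest to the left, and most end-joining genes lie near 0 on a narrower axis.

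Other genes of immature T cells differed in both directions. Of 17 tested thymocyte and early T precursor genes, 3 were called higher and 4 lower in allogeneic KO, and 2 higher and 5 lower in allogeneic WT cells, with medians of −0.221 in KO and 0.0146 in WT. Arpp21, an RNA-binding protein of immature thymocytes, averaged 0.0575 ± 0.0507 CPM in allogeneic KO against 0.798 ± 0.650 CPM in syngeneic KO, and 0.0660 ± 0.00439 CPM in allogeneic WT against 0.611 ± 0.292 CPM in syngeneic WT libraries. It was lower by −3.66 ± 0.78 in KO (adjusted p = 0.00434) and −3.18 ± 0.76 in WT cells (0.00665). Tcf7, a factor of early and naive T cells, was lower by −2.09 ± 0.22 in KO (2.18e-05) and −1.87 ± 0.22 in WT (3.79e-05). Gata3 was higher by 1.14 ± 0.16 in KO (0.000184) and 1.78 ± 0.16 in WT (4e-06), and the thymus homing receptor Ccr9 by 1.54 ± 0.33 in KO (0.00555) and 2.04 ± 0.34 in WT (0.000738). Notch1, Hes1 and Themis were not called.

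Among mature T cell genes, Ccr7 was far lower in allogeneic cells. Ccr7, a chemokine receptor that guides naive T cells into lymph nodes, averaged 7.92 ± 1.12 CPM in allogeneic KO against 160 ± 52.2 CPM in syngeneic KO, and 12.2 ± 1.81 CPM in allogeneic WT against 186 ± 42.0 CPM in syngeneic WT libraries. It was lower by −4.34 ± 0.25 in KO (adjusted p = 2.42e-07) and −3.94 ± 0.25 in WT cells (3.14e-07). Of the 10 mature T cell genes tested, none was called higher and 1 lower in allogeneic KO, and 3 higher and 2 lower in allogeneic WT cells. Trac, the constant segment of the T cell receptor alpha chain, differed by −0.03 ± 0.16 in KO and 0.22 ± 0.16 in WT and was not called.

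None of the partners of pre-T-alpha and its proximal signalling genes was called lower in allogeneic cells. Of 10 tested genes, 1 was called higher in allogeneic KO and 4 in allogeneic WT cells, with medians of 0.392 in KO and 0.500 in WT. Zap70, the kinase recruited to the receptor, averaged 406 ± 69.0 CPM in allogeneic KO against 258 ± 59.4 CPM in syngeneic KO, and 400 ± 36.2 CPM in allogeneic WT against 204 ± 31.2 CPM in syngeneic WT libraries. It was higher by 0.65 ± 0.18 in KO (adjusted p = 0.0194) and 0.97 ± 0.18 in WT (0.00139), and the KO call was lost without syngeneic KO replicate 2 or 3 or without allogeneic KO replicate 1 (0.0808, 0.0847 and 0.0514). Fitting only the compared groups also ended the KO call (0.0618). Lcp2, an adaptor of the receptor, was higher by 0.56 ± 0.14 in WT (0.00871). Lck, Cd3d and Cd3g were not called in either genotype. No gene of the pre-TCR, thymocyte or mature T cell lists was called between KO and WT cells in either transplant.

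Between syngeneic KO and WT cells, a fit of these 6 libraries alone with the replicate number as a block, chosen after seeing the data, added calls in the end-joining, transcription factor and thymocyte lists. Id3 (log2 fold change 0.55 ± 0.13, adjusted p = 0.024 by edgeR) and Myb (0.41 ± 0.11, 0.042) were higher in KO, and so was Hmgb2 (0.41 ± 0.10, 0.0422). Il7r, the interleukin 7 receptor (−0.46 ± 0.09, 0.0149), and Lyl1, a progenitor transcription factor (−1.81 ± 0.27, 0.0121), were lower in KO. In the same fit the Dntt change was 0.38 ± 0.17 and that of Rag1 −0.24 ± 0.56. None of these 5 list genes was called in the fit of all 12 libraries, with or without the block. In the lists of other cell types the same fit added Pax5 (−3.34 ± 0.49, adjusted p = 0.0023), a B cell transcription factor, and Cd74, Fcgr3, Klf1, Ncr1, Klra8 and Trdc (0.00131 to 0.0305), all lower in KO. It lost the calls of Hbb-bs, Hbb-bt, Hba-a1, Hba-a2 and Slc4a1 (0.0693 to 0.103).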

How the data were processed

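The values deposited by the authors are expected counts per gene, unscaled estimated counts whose totals differ between libraries. The labels describe 18 samples of total RNA, from which ribosomal RNA was depleted (KAPA RNA HyperPrep with RiboErase, 100 ng). Tools in the submitters' processing notes are Bowtie2 2.2.1 and TopHat2 2.0.13 and Cuffdiff 2.2.1 and Cufflinks, with build GRCm38. The sources used here do not say which tool counted, in which annotation, or whether strand was used. Between 94.5 and 95.0% of a library's values were whole, and all were rounded. The 12 columns whose names match sample titles were used. The other 6 columns, which carry a prefix, match no sample by name and were not used, and naive samples were not analysed here. Positions came from GENCODE M21, which held 45139 of the 46073 identifiers.

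One edgeR 4.0.16 model (R 4.3.3) with a mean for each of 4 groups was fitted to the 12 libraries, with TMM scaling, filterByExpr (count minimum 10, 18447 genes kept) and robust quasi-likelihood F tests, two-sided, on 8 residual degrees of freedom. A gene was called when its p value, adjusted by Benjamini-Hochberg across the whole table, was under 0.05. Standard errors are the log2 fold change over the square root of F, and ± after a group mean is the SD. Pooled ratios carry exact 95% intervals that cover counting error only. The code was tested on simulated data. Nothing states that libraries of a group came from separate experiments beyond separate pools of mice, described as independent biological triplicates.

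The members and gene lists were chosen with earlier results of these data known, and a few list genes were left out and are not reported here. The named genes are the members, called list genes (up to 6 per list with the smallest p) with examples not called, the 5 genes most like each tested member, neighbouring genes and Wapl. Ly6d, Siglech, Cd79b, Igll1, Sox4, Flt3 and Mpo were singled out after their values were seen. Residuals of same-numbered libraries of syngeneic KO and WT had r of 0.545, 0.170 and 0.335 in replicate order. The highest r of each syngeneic KO library with a WT library of another number was −0.350, 0.114 and 0.363. Only replicate 1 was thus clearly closest to its own number, and in replicate 3 another number was closer. Numbers were taken to pair the libraries there as an assumption, which the labels do not state. Alternatives were RLE factors, DESeq2 1.42.0, no filter, a replicate block, another prior count, only the compared groups, no ribosomal RNA genes and leaving out each library.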

Additional observations from a re-analysis of the deposited data

Results flagged for a closer look

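The difference between KO and WT libraries was unlike between transplants for 7 genes of the red cell precursor list, by the interaction term of the edgeR fit. The interaction log2 fold changes, allogeneic KO over WT change minus syngeneic KO over WT change, were 6.13 for Hbb-bs, 6.43 for Hbb-bt, 5.92 for Hba-a1, 6.11 for Hba-a2, 6.26 for Alas2, 5.78 for Epb42 and 5.54 for Slc4a1. These globin, haem and membrane genes of red cell precursors were high in syngeneic WT libraries only, for example Hbb-bs at 2.52 ± 0.846 CPM in allogeneic KO, 3.94 ± 1.59 CPM in allogeneic WT, 12.8 ± 10.4 CPM in syngeneic KO and 1390 ± 461 CPM in syngeneic WT libraries (SD, n = 3 each). All but that of Epb42 lost the call when at least 1 library was left out, that of Alas2 only without allogeneic KO replicate 3 (adjusted p = 0.0577), and with the replicate number as a block 5 of the 7 calls were lost (adjusted p = 0.0534 to 0.133, edgeR). Red cell RNA carried in the sorted libraries and a change within T cells cannot be told apart here, and the part of each was not tested. Dntt was at 6.17 ± 1.09 CPM in syngeneic KO and 4.59 ± 0.511 CPM in syngeneic WT libraries.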

How the results depend on the processing

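The level of Dntt chose it, so its values under the alternatives are a description. Its fitted log2 fold change, allogeneic over syngeneic, moved beyond the spread between replicates with a prior count of 2 (−5.81 in KO, −5.12 in WT). Leaving out 1 library gave −6.58 to −6.08 in KO, −0.66 to −0.15 for allogeneic KO over WT and −1.09 to −0.58 for the interaction, the lowest without allogeneic KO replicate 1 each time. The counts of called genes were 622 for syngeneic KO over WT, 10 for allogeneic KO over WT, 4500 for allogeneic over syngeneic in KO, 5955 in WT and 88 for the interaction. With DESeq2 they were 1018 for syngeneic KO over WT, 77 for allogeneic KO over WT and 293 for the interaction. With only the compared groups fitted they were 349, 6 and, for allogeneic over syngeneic in KO, 2669. Leaving out 1 library gave 260 to 742 for syngeneic KO over WT, 3 to 15 for allogeneic KO over WT and 28 to 242 for the interaction. Among the list genes, calls were 17 for syngeneic KO over WT, all in lists of other cell types (11 with only the compared groups, 10 to 21 without 1 library), 0 for allogeneic KO over WT (1 with DESeq2, and 771 of all genes at an unadjusted p under 0.05) and 7 for the interaction (15 with DESeq2, 4 without the filter, 1 to 12 without 1 library). With the replicate block, the interaction gave 64 calls and 3 among the lists, and syngeneic KO over WT gave 626. With the block in a fit of the 6 syngeneic libraries alone, a setting chosen after seeing the data, it gave 1287. The block left the Dntt change at −5.50 in WT cells. Without syngeneic KO replicate 1, list calls for allogeneic over syngeneic in KO were 53, against 42 with it. Of 42 list calls in KO and 67 in WT for allogeneic over syngeneic, 17 and 25 were lost under at least 1 alternative. Depth limits Rag1 and Rag2, whose allogeneic libraries held at most 1 and 7 counts.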
